A study of Homo sapiens with 6 samples.

Results

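The 9 genes described here code for proteins of the JAK-STAT pathway, namely the kinases JAK1, JAK2 and TYK2, the transcription factors STAT2, STAT3 and STAT6, and the inhibitors SOCS4, SOCS5 and SOCS6. They were picked by gene symbol, with earlier results of these data known, and are 9 of 22933 symbols in the authors' table of gene loci. Cells were PC-3, an established epithelial line derived from a prostate adenocarcinoma metastasis in bone. Both groups carried the Tet-On Advanced transactivator (rtTA2, delivered by retrovirus and selected with G418) plus a second retrovirus, and both received 300 ng/ml doxycycline (Dox) for 4 hours. In the tdTom group (3 samples) the second virus held tdTomato driven by a PGK promoter. In the TTP-tdTom group (3 samples) it also held TTP (ZFP36) behind the Dox-responsive promoter. According to the methods, the transduced cells were sorted for tdTom, and nothing in the labels says that the samples of a group were separate cultures.

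In the JAK-STAT pathway, cytokines bring receptor chains together, the JAK kinases bound to those chains phosphorylate the receptor, and STAT factors dock there, are phosphorylated in turn and move to the nucleus to switch on their target genes. SOCS proteins bind activated receptors or kinases through an SH2 domain and recruit an elongin and cullin ubiquitin ligase through a SOCS box, which makes them brakes on the pathway. TTP binds AU-rich elements in the 3′UTR of messenger RNAs and speeds their decay, and short-lived transcripts of cytokines and signalling inhibitors are among the kinds of messenger RNA that carry such elements. The comparison of TTP-tdTom with tdTom cells asks which transcripts differ in level when TTP is expressed.

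The deposited table held 1 FPKM value per group (fragments corrected for how long the transcript is and how deep the library), so each value below is the authors' group value, with no spread between samples and no test. The number of fragments behind a value is unknown, and the differences were not set against the replicate error, since the authors' own test columns were not used. A symbol was compared where either group reached an FPKM of 1 and neither was listed at 0, which held for 13004 symbols and for 8 of the 9 members. Across those symbols the median log2 ratio of TTP-tdTom over tdTom was -0.23, and 78.5% of them were lower in the group labelled TTP-tdTom. A difference is therefore given both as deposited and relative to this median shift. At the ZFP36 locus itself the FPKM was 5.56 in tdTom and 5.54 in TTP-tdTom, so the table did not show the induced gene there. Whether transgene reads were counted at that locus was not analysed. The paper reports that immunoblots detected TTP protein in TTP-tdTom cells after the same time in Dox. It also reports higher TTP messenger RNA and protein in such cells after longer Dox treatment. Of the epithelial markers, EPCAM was at 15.1 and 16.8, KRT8 at 20.9 and 19.1 and KRT18 at 98.2 and 91.5 FPKM in tdTom and TTP-tdTom, while CDH1 was under 1 in both, as were the blood cell markers PTPRC, CD3E and CD14. In bulk RNA, fewer cells expressing a gene and less RNA per cell cannot be told apart.

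The 3 SOCS transcripts were the members with the lowest ratios, and the STAT transcripts that could be compared had the highest. SOCS4, SOCS5 and SOCS6 were between 1.83-fold and 2.26-fold lower in the group labelled TTP-tdTom. JAK2 was at 66.5% of its tdTom level, TYK2 and JAK1 were lower by less, and STAT2 and STAT6 were slightly higher. In all, 6 of the 8 members compared were lower and 2 were higher, while 78.5% of all symbols compared were lower. SOCS4 and SOCS5, or 2 of 8, were at least 2-fold lower, a difference that 8.65% of all symbols compared also reached. No member was at least 2-fold higher, against 2.45% of all symbols. At 1.5-fold, 4 of 8 members were lower (SOCS4, SOCS5, SOCS6 and JAK2), against 22.8% of all symbols, and none was higher, against 3.9%. The median log2 ratio was -0.40 over the 8 members and -0.23 over all symbols compared.

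**Figure D1:**
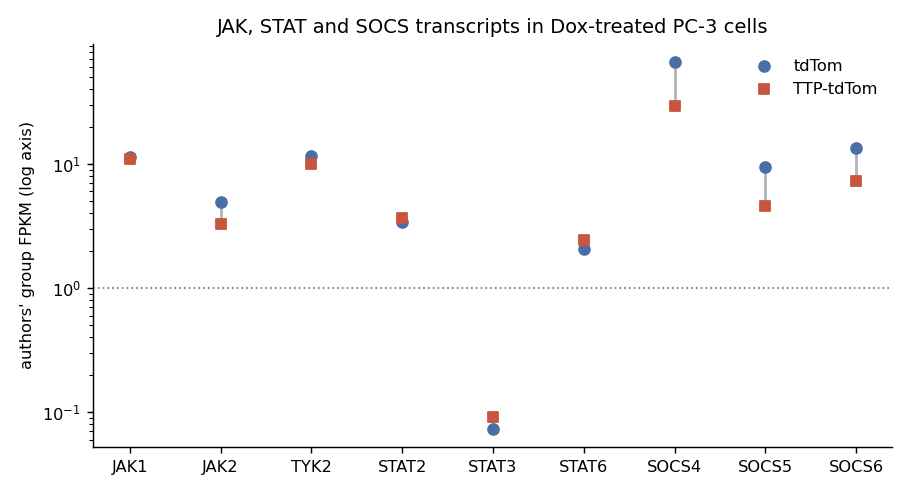
FPKM of the 9 members (log axis) in the tdTom group (circles) and the TTP-tdTom group (squares), 1 value per group as deposited by the authors, with a dotted line at an FPKM of 1. The gap is widest for SOCS4 (65.9 and 29.1 FPKM), small for the JAK1, TYK2, STAT2 and STAT6 transcripts, and STAT3 lies far below the other members.

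**Figure D2:**
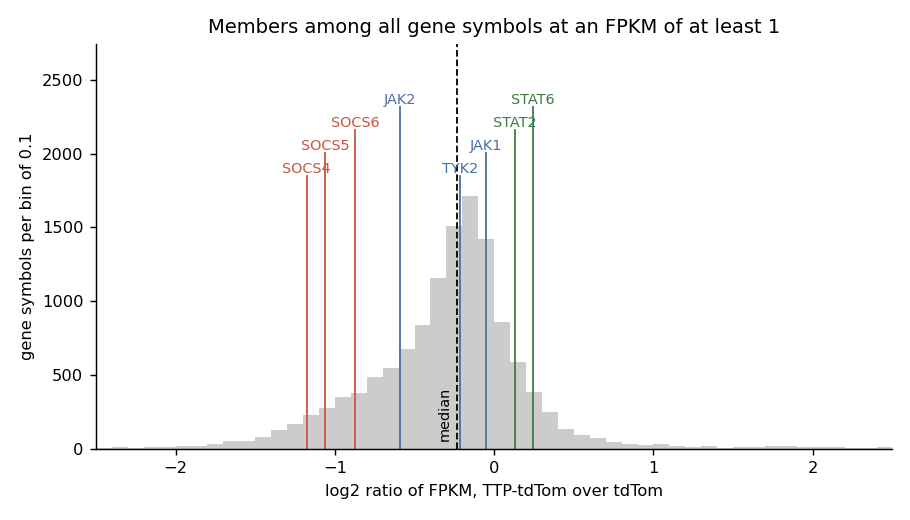
Histogram of the log2 ratio of FPKM, TTP-tdTom over tdTom, for 13004 gene symbols, with the 8 members compared drawn as lines (SOCS red, JAK and TYK2 blue, STAT green) and the median of all symbols dashed at -0.23. The SOCS lines stand in the left tail, the STAT lines on the right flank, and JAK1 and TYK2 are below 0 as deposited but to the right of the median.

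SOCS4 was the most abundant member. Its FPKM was 65.9 in tdTom and 29.1 in TTP-tdTom, a log2 ratio of -1.18, so that 44.2% of the tdTom level was found in the group labelled TTP-tdTom. Relative to the median shift its log2 ratio was -0.94, short of 2-fold. Only 5.13% of symbols compared had a lower ratio, while 91.2% of them had a lower FPKM in tdTom. SOCS4 is a SOCS family member with a long N-terminal region, studied mainly for its action on epidermal growth factor receptor signalling. Its locus (GRCh37, chr14:55399632-55517293) is an interval that the table also gives for WDHD1, a gene for a DNA replication factor, which was at 18.5 and 11.7 FPKM. Whether fragments of these neighbours were told apart was not analysed.

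SOCS5, the closest relative of SOCS4, lies at chr2:46926099-46989927. Its FPKM was 9.50 in tdTom and 4.55 in TTP-tdTom, a log2 ratio of -1.06, or -0.83 relative to the median shift. Like SOCS4 it was past 2-fold as deposited and not after centring. Of all symbols compared, 7.23% had a lower ratio.

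SOCS6, which binds the receptor tyrosine kinase KIT and, with SOCS7, forms another branch of the family, lies at chr18:67956128-68003051. Its FPKM was 13.4 in tdTom and 7.30 in TTP-tdTom, a log2 ratio of -0.87, or -0.64 relative to the median shift. Its ratio lay below that of most symbols, with 12.1% of them lower still.

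The SOCS family as a whole was not lower throughout. Of its other genes, SOCS2, an inhibitor of growth hormone signalling, was at 38.7 FPKM in tdTom and 35.6 in TTP-tdTom, and its log2 ratio of -0.12 became 0.11 relative to the median shift. SOCS3, the inhibitor of the shared receptor chain of the IL-6 family, was at 6.45 and 7.25. SOCS7 was at 1.64 and 1.74. SOCS1 and CISH were under 1 in both groups. Summed over the 8 SOCS family genes, the FPKM was 137 in tdTom and 86.8 in TTP-tdTom, a log2 ratio of -0.66, or -0.42 relative to the median shift. SOCS4 gave 48.2% of that sum in tdTom and 33.6% in TTP-tdTom, and SOCS2 gave 28.2% and 41.0%. SOCS2 therefore stood above SOCS4 in the group labelled TTP-tdTom and below it in tdTom.

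Among the kinases, JAK2, which serves the receptors for growth hormone, prolactin, erythropoietin and interferon gamma, was the least abundant member of the trio. Its FPKM was 4.90 in tdTom and 3.26 in TTP-tdTom, a log2 ratio of -0.59, or -0.35 relative to the median shift. That ratio was below those of most symbols compared, 22.7% of which were lower still. The locus is chr9:4984963-5128783.

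JAK1, which works with interferon receptors and with the receptors of the IL-6 family, was at 11.3 FPKM in tdTom and 10.9 in TTP-tdTom. Its log2 ratio was -0.05 as deposited and turned to 0.18 relative to the median shift. The locus, chr1:65210778-65432187, is an interval shared with RAVER2, which was at 12.0 and 6.53 FPKM. The neighbours in that interval thus differed in ratio, and whether their fragments were told apart was not analysed.

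TYK2, the partner of JAK1 at the type I interferon receptor, was at 11.5 FPKM in tdTom and 9.94 in TTP-tdTom. The log2 ratio of -0.21 became 0.02 relative to the median shift, so that TYK2 sat in the middle of all symbols, 52.6% of which were lower. It lies at chr19:10461204-10491248. In level, TYK2 and JAK1 were close to each other in each group and JAK2 was below both. JAK3, the kinase of lymphoid cytokine receptors, was listed at 4.27 and 4.09 FPKM on a row that also carries the symbol INSL3. The sum over the 4 JAK genes was 32.0 FPKM in tdTom and 28.2 in TTP-tdTom, a log2 ratio of -0.18 that became 0.05 relative to the median shift.

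Both STAT members that could be compared were higher in the group labelled TTP-tdTom. STAT2, which works with IRF9 in the interferon response, was at 3.38 FPKM in tdTom and 3.69 in TTP-tdTom, a log2 ratio of 0.13, or 0.36 relative to the median shift. It lies at chr12:56735227-56754047. STAT6, the factor downstream of IL-4 and IL-13, was at 2.05 and 2.42 FPKM, a log2 ratio of 0.24, or 0.48 relative to the median shift. It lies at chr12:57482677-57505196, in an interval shared with NAB2, which was at 2.68 and 2.49 FPKM. The ratios of STAT2 and STAT6 were above those of 86.5% and 90.9% of all symbols compared, at levels of a few FPKM.

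STAT3, the factor downstream of IL-6, was at 0.0736 FPKM in tdTom and 0.0911 in TTP-tdTom, under the minimum of 1, and no ratio is given. Only 1 row of the table carried its symbol (chr17:40465343-40540513). Its neighbours on chromosome 17 were looked at after this value was seen. STAT5A was listed at 0 in both groups, and STAT5B at 0.00952 in tdTom and 0 in TTP-tdTom. In total, 13 neighbouring symbols from DHX58 to NAGLU, spanning 443879 bases, were under 1 FPKM in both groups, 11 of them under 0.1 in both and 5 of them listed at 0 in both. They included genes used in most cells, such as KAT2A, a histone acetyltransferase, and RAB5C, an endosomal GTPase at 0.0161 and 0.0359 FPKM. A listed 0 can also be a failed estimate. Outside the stretch, DNAJC7 was at 61.0 and 49.4 FPKM on one side, and COASY at 5.87 and 5.66 and TUBG1 at 61.1 and 53.6 on the other. Of 3561 runs of neighbouring symbols under 1 FPKM in this table, counted at any length, 34 were at least as long as this one, and the longest held 81 symbols. Within the stretch the table also listed 8 loci without a symbol, or 1.80 per 100000 bases, compared with 14.9 per 100000 bases over the whole of chromosome 17. Those 8 loci reached 0.616 FPKM in tdTom and 4.68 in TTP-tdTom. As background, PC-3 is known from earlier work as a line that lacks STAT3 and the neighbouring STAT5 genes. DNA copy number was not measured here.

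**Figure D3:**
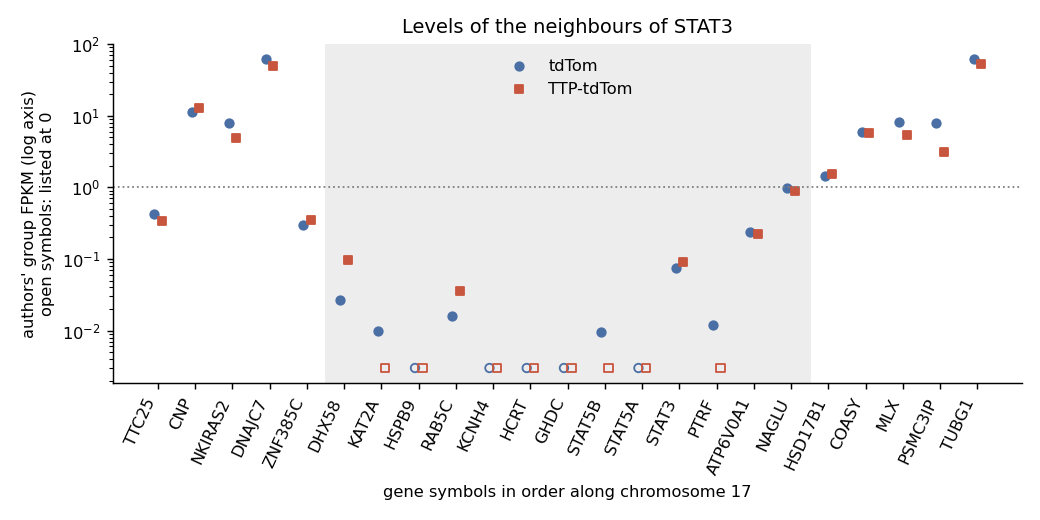
FPKM (log axis) of STAT3 and its neighbours in their order along chromosome 17, tdTom as circles and TTP-tdTom as squares, open where listed at 0, with a dotted line at an FPKM of 1 and the 13 symbols of the stretch shaded. Values within the shading stay under 1 FPKM in both groups, and DNAJC7 and TUBG1 outside it are between 49.4 and 61.1 FPKM.

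The members were also compared by the 3′UTR of their transcripts, as this is where TTP binds. The heptamer UAUUUAU, the core of the TTP binding site, was counted on the messenger strand, overlapping copies included, in each gene's longest 3′UTR, taken from the transcripts of GENCODE release 29. It was present in JAK2, SOCS4, SOCS5 and SOCS6, the 4 members at least 1.5-fold lower as deposited, with 1 copy in each. For JAK2 this rests on the setting, as its log2 ratio of -0.59 only just passed 1.5-fold (0.58 on the log2 scale) and was -0.57 with a pseudocount of 0.1, -0.47 with a pseudocount of 1, -0.54 with equal FPKM sums and -0.35 after centring. It was not in the 3′UTR of JAK1, TYK2, STAT2, STAT3 or STAT6. The 4 copies are shown because they come from the members with the 4 lowest log2 ratios, with the heptamer in capitals (T for U) and 30 bases in all.
JAK2: gtgtgtgtgtgtTATTTATacaaaacttaa
SOCS4: tgttaaaattagTATTTATatgaaagtcaa
SOCS5: gtgtgtattataTATTTATgtatgcacata
SOCS6: tttttgcaaaacTATTTATttttaaaacaa
The copies began 1331 bases after the stop codon in JAK2 (3′UTR of 1392 bases), 2163 in SOCS4 (5124 bases), 2784 in SOCS5 (2988 bases) and 1933 in SOCS6 (3924 bases). In JAK2 and SOCS5 the copy thus lay close to the end of the 3′UTR, and in SOCS4 and SOCS6 near its middle.

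The heptamer is frequent in 3′UTRs of such lengths. Among genes with a 3′UTR of like length (within a factor of 0.8 either way, which gave 2791 for JAK2, 1276 for SOCS4, 2419 for SOCS5 and 1886 for SOCS6), 32.0% held it for JAK2, 69.9% for SOCS4, 54.8% for SOCS5 and 62.9% for SOCS6. The 3′UTRs of the 5 members without it were 305 to 2421 bases long, and at those lengths 8.59% to 48.0% of 3′UTRs held it. The 4 with it had 67.3% to 70.0% A and T, compared with 45.2% to 62.0% in the other 5. The shorter motif AUUUA, part of the heptamer, occurred 6 times in JAK2, 14 in SOCS4, 10 in SOCS5 and 16 in SOCS6, and 0 to 4 times in the other 5 members. Base composition and length moved with the presence of the heptamer, and their part in the difference in level was not tested.

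Other family genes held the heptamer at little difference in level. Their sites are shown for comparison with those of the members that were lower.
SOCS2: gatgtatgtgagTATTTATcccattttatg
SOCS3: tgcacatatttaTATTTATattcagaaaag
SOCS7: ttttgtttttgaTATTTATattacttggta
SOCS2, SOCS3 and SOCS7 had log2 ratios of -0.12, 0.17 and 0.09. The SOCS3 3′UTR held 2 overlapping copies, of which the second is shown. These 3′UTRs had 57.5%, 46.2% and 50.5% A and T. Over all symbols compared that could be matched to a 3′UTR (11852, or 91.1%), the median log2 ratio was -0.44 for the 4268 with the heptamer and -0.17 for the 7584 without, and 15.6% and 4.58% were at least 2-fold lower. For 3′UTRs of 2000 to 6000 bases the medians were -0.47 and -0.22. Base composition still differed in that range, with a median of 62.2% A and T with the heptamer and 56.2% without. The JAK2 3′UTR of 1392 bases is shorter than that range. JAK2, SOCS4, SOCS5 and SOCS6 lay below the median of all symbols with the heptamer.

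**Figure D4:**
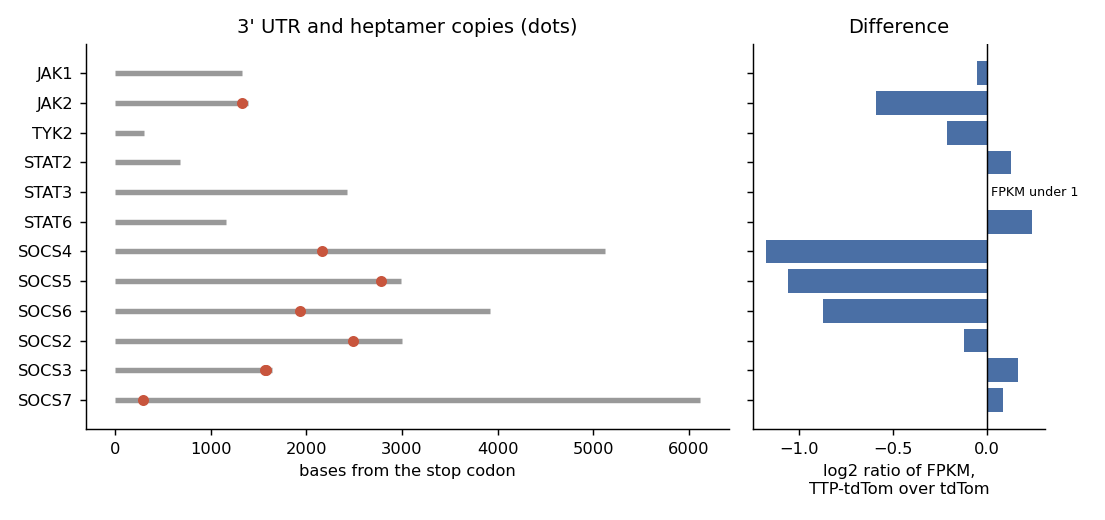
Left, the longest 3′UTR of each member and of SOCS2, SOCS3 and SOCS7 as a bar in bases from the stop codon, with a dot at each start of the heptamer. Right, the log2 ratio of FPKM, TTP-tdTom over tdTom, as deposited (1 value per group), which is negative for JAK1, TYK2 and SOCS2 here but positive relative to the median shift. JAK2, SOCS4, SOCS5 and SOCS6 have a dot and bars from -0.59 to -1.18, while SOCS2, SOCS3 and SOCS7 have dots and bars from -0.12 to 0.17.

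The rest of the pathway was described from 8 lists of 105 genes, of which 81 could be compared. Of these, 65 were lower and 16 higher in the group labelled TTP-tdTom, where 78.5% of all symbols compared were lower. That share also stands beside the count of lower genes in each list below. Of the 81, 43 lay below the median of all symbols. At least 2-fold lower were 6 of the 81, a share below the 8.65% of all symbols, and none was at least 2-fold higher, against 2.45%. After centring on the median, 5 of the 81 were at least 2-fold lower, a share above the 4.24% of all symbols. At 1.5-fold, 21 of the 81 were lower, a share close to the 22.8% of all symbols. The median log2 ratio was -0.30.

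Upstream of the kinases, 9 of 16 ligands could be compared, 6 lower and 3 higher, at a median log2 ratio of -0.32. IL12A, a subunit of IL-12, went from 1.89 FPKM in tdTom to 0.236 in TTP-tdTom, a log2 ratio of -3.00 at a low level. Its 3′UTR of 460 bases held 7 copies of the heptamer. CTF1 (cardiotrophin 1) was at 11.3 and 10.2 FPKM, above the median shift by 0.09, and CLCF1, a cytokine of the IL-6 family, at 5.26 and 3.09.

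Of 26 receptors, 17 could be compared, 14 lower and 3 higher, at a median of -0.27, with 9 of the 17 below the median of all symbols. The growth hormone receptor GHR, which signals through JAK2, was at 13.1 FPKM in tdTom and 5.29 in TTP-tdTom, a log2 ratio of -1.31, and its 3′UTR held no heptamer. IL6ST, the chain shared by the IL-6 family, was at 65.2 and 42.7, and IL10RB at 31.2 and 33.6. With GHR and IL6ST, the receptors LIFR, OSMR and IFNAR1 made up the 5 of 17 that were at least 1.5-fold lower, against 22.8% of all symbols, the last 3 being named after their values were seen.

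The 6 genes listed as partners of the SOCS box ubiquitin ligase were all lower as deposited, at a median of -0.28. Of the 6, 3 lay below the median of all symbols. TCEB1 (elongin C) was at 344 and 295 FPKM and RNF7, the RING subunit, at 92.4 and 91.9, and relative to the median shift their log2 ratios were 0.01 and 0.23. CUL5, the cullin scaffold, was at 18.2 and 9.15 FPKM, a log2 ratio of -0.99, and was named after its value was seen. Other brakes on the pathway had the lowest median of the lists, -0.55 over 10 genes, of which 9 were lower as deposited and 8 lay below the median of all symbols. PTPN11, the phosphatase SHP2, which also passes growth factor signals on, was at 87.3 FPKM in tdTom and 29.9 in TTP-tdTom, a log2 ratio of -1.54. PTPN2, a phosphatase of JAK1 and STAT proteins, was at 102 and 82.3.

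The list of 8 STAT partners and co-activators also held the adaptors STAM, STAM2 and SH2B1. All 8 were lower as deposited, at a median of -0.45, with 6 of the 8 below the median of all symbols. STAM2, a JAK-binding adaptor of endosomes, was at 7.91 and 3.91 FPKM, a log2 ratio of -1.02, its relative STAM at 17.6 and 9.62, and the acetyltransferase EP300 at 22.2 and 13.2. Of 10 genes listed as STAT3 targets, 9 were lower, 6 of the 10 below the median of all symbols, at a median of -0.37 and in cells where STAT3 itself was under 0.1 FPKM. VEGFA, a vascular growth factor, was at 10.7 and 3.45 FPKM, and HIF1A, the oxygen-regulated transcription factor, at 550 and 204, with log2 ratios of -1.64 and -1.43. These genes have other regulators than STAT3, and each held 3 copies of the heptamer. Of 16 interferon target genes, 10 were lower and 6 higher, none by 2-fold, and their median of -0.12 turned to 0.12 relative to the median shift. ISG15, a ubiquitin-like protein, was at 121 and 112 FPKM, above the median shift by 0.13, and the transcription factor IRF1 at 16.7 and 22.7.

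**Figure D5:**
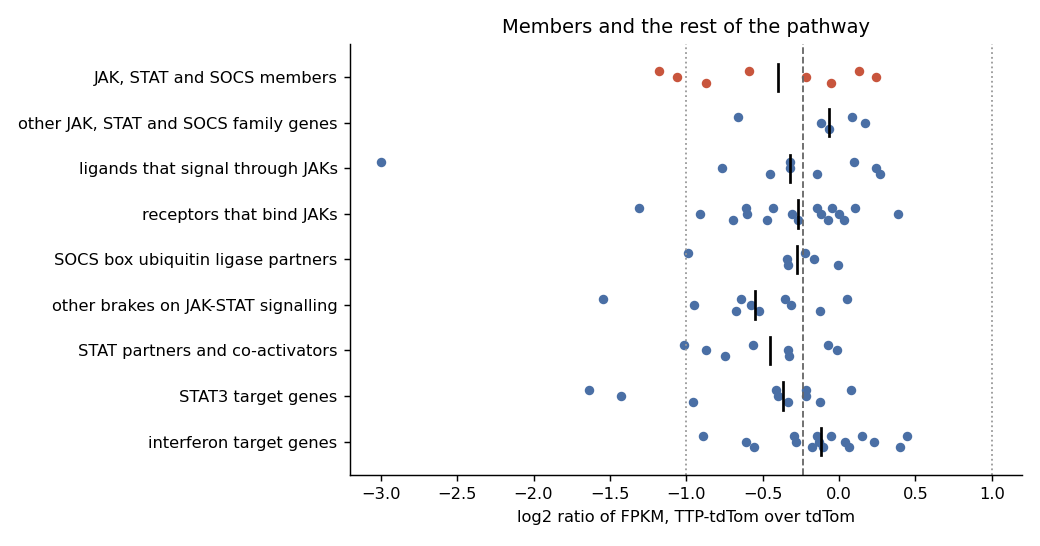
Log2 ratio of FPKM, TTP-tdTom over tdTom, for each member (red) and for each compared gene of the 8 pathway lists (blue), with the median of each row as a black bar, the median of all symbols (-0.23) dashed and 2-fold differences dotted. As deposited most points lie below 0, including JAK1 and TYK2, which lie above the dashed line, and the ligand farthest to the left is IL12A at -3.00.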

How the data were processed

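RNA from 6 samples was made into strand-specific libraries and read in paired-end runs. According to the methods and the submitters' processing notes, reads were aligned with TopHat2 2.0.13 to Hs37D5 (GRCh37 with decoy sequence) and levels were computed with Cufflinks 2.2.1. The FPKM values, 1 per group at each of 406165 loci, were deposited by the authors. The authors' fold change, test statistic, p, q and significance columns hold their own comparison and were not used. Fragment counts and depth reached are unknown. The table does not state whether strand was used in counting.

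Each symbol was represented by the row with the most RefSeq names, then the highest summed FPKM. Starts were counted from 1. Log2 ratios were taken without a pseudocount. As there is 1 value per group, no test was run and the planned fit over samples was not made. The members and lists were chosen with earlier results of these data known. Genes named from the lists were those at least 2-fold different or, where a list had fewer than 2, also its 2 most abundant in tdTom, along with other JAK, STAT and SOCS genes and ZFP36. A few genes of this rule are not reported here. 3′UTRs came from GENCODE release 29 by symbol or synonym, without coordinates. Python 3.11.15, numpy 2.4.6 and pandas 2.3.3 were used, and the counting was tested on simulated data. The alternatives were a 1.5-fold threshold, pseudocounts of 0.1 and 1, other FPKM minimums, other rows per symbol, centring and rescaling to equal FPKM sums.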

Additional observations from a re-analysis of the deposited data

How the results depend on the processing

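No paired analysis was possible because the table holds 1 value per group, and for the same reason leaving out a replicate was not run. Of 2 members at least 2-fold lower as deposited, the count was 4 at a threshold of 1.5-fold, 1 with a pseudocount of 1 (SOCS4), 1 among the 4 members that reached an FPKM of 10 in either group (SOCS4), and 0 once ratios were centred on the overall median. The cause of these moves lies in the settings themselves, which lower the threshold, shrink ratios, test fewer genes or shift every ratio. Of all symbols compared, 8.65% were at least 2-fold lower as deposited and 22.8% at least 1.5-fold lower. The share at least 2-fold lower was 5.24% with a pseudocount of 1, 10.8% with a minimum FPKM of 10 and 4.24% after centring. The members' median log2 ratio of -0.40 was -0.21 with no minimum FPKM, which adds STAT3, -0.54 with a minimum of 10 and -0.17 after centring. The count over the pathway lists, 6 at 2-fold, was 21 at 1.5-fold, of 81 compared, where 8.65% and 22.8% of all symbols passed. At 2-fold after centring it was 5, where 4.24% of all symbols passed. JAK2 was past 1.5-fold as deposited (-0.59) and short of it with pseudocounts of 0.1 (-0.57) and 1 (-0.47), with equal FPKM sums (-0.54) and after centring (-0.35). SOCS5 was at -0.92 with a pseudocount of 1. Of the values of single members under the alternatives, 63 kept direction and side of the 2-fold threshold, 3 were no longer past it and 2 (JAK1 and TYK2) changed sign on centring. Many of the 63 could not have changed. Each member has 1 row, so other rows per symbol give the same ratio, and an FPKM minimum leaves a ratio as it was. Only the pseudocounts, centring and rescaling to equal FPKM sums could alter the ratio of a member. FPKM values carry no depth, so small differences at a few FPKM, as for STAT2 and STAT6, cannot be set against counting error.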
